A study of Bos taurus with 12 samples.

Results

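The aminoacyl-tRNA synthetases of the bovine blastocyst were read from 35 of the 26773 probe sets of the series, each the only probe set with exactly 1 gene symbol for its gene. Symbols were taken by a naming rule, namely 1 letter followed by ARS1 or ARS2 together with EPRS1, FARSA, FARSB and the scaffold genes AIMP1, AIMP2 and EEF1E1. This gave 17 cytosolic enzymes, 15 mitochondrial enzymes and 3 scaffold proteins, and all 35 were among the 24415 probe sets tested. The probe sets of FARSB and NARS1 carry more than 1 symbol, so these genes were not analysed here, and neither was VARS2.

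An aminoacyl-tRNA synthetase joins an amino acid to its tRNA, which is the step that sets how the genetic code is read, and the letter before ARS in a symbol is the standard letter of that amino acid. The cytosol and the mitochondrion have separate nuclear-encoded enzymes for most amino acids, while GARS1 and KARS1 encode both forms. In mammalian cells uncharged tRNA activates the kinase GCN2, which phosphorylates eIF2 and thereby raises translation of the transcription factor ATF4. In human and mouse cells ATF4 induces many cytosolic synthetase genes together with genes of amino acid synthesis and uptake.

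RNA of expanded blastocysts was hybridized to 12 Affymetrix Bovine Gene 1.0 ST arrays, 3 for each of 4 groups, and each array received 15 ng of total RNA of its own embryo pool. VITRO embryos came from slaughterhouse oocytes that were matured, fertilized and cultured in vitro. IFOT-M embryos came from slaughterhouse oocytes matured in vitro and placed by intrafollicular oocyte transfer into a follicle of an inseminated heifer, so that fertilization and development took place in vivo. The series text calls that follicle preovulatory, whereas the sample labels call it dominant. IFOT-IM embryos came from immature slaughterhouse oocytes placed into the dominant follicle, which added maturation in vivo. VIVO embryos, the control, were flushed from superovulated and inseminated heifers. Semen of the same bull served all groups, recipients and superovulated donors were Simmental heifers, and slaughterhouse oocytes were the source of all groups except VIVO. Pools of both IFOT groups can hold embryos from the recipient's own oocyte, and VIVO embryos alone followed superovulation.

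Values are log2 signals as deposited, and the call used throughout is a false discovery rate (FDR) below 0.1 in limma, the linear model with moderated variance fitted to all 4 groups. The distribution of signals differed between groups. The array median was 1.95 to 1.97 in VITRO blastocysts, 1.84 to 1.86 in IFOT-M, between 1.86 and 1.93 in IFOT-IM, and 1.75 to 1.78 in VIVO, and the SD over probe sets was lowest in VITRO, at 1.50 to 1.54, against 1.73 to 1.75 in VIVO. In the highest decile of mean signal, 69.8% of all probe sets were called lower than VIVO in VITRO blastocysts, 22.1% in IFOT-M and 44.3% in IFOT-IM. All cytosolic synthetases lay in the upper 3 deciles, so the main counts and the enzymes with the largest changes are given also after quantile and cyclic loess normalization of the deposited values. The mean of 10 trophectoderm markers ran from 4.22 to 4.47 in VITRO, 4.65 to 4.76 in IFOT-M, between 4.50 and 4.66 in IFOT-IM, and 4.75 to 5.02 in VIVO, and 8 of these markers were called lower in VITRO blastocysts, 2 in IFOT-M and 5 in IFOT-IM. Of 6 inner cell mass markers, POU5F1 and SOX2 were lower in VITRO, at -1.09 and -1.16, and NANOG was higher in VITRO and IFOT-IM, at 1.12 and 0.97. Of 5 hypoblast markers, GATA6 and PDGFRA were lower and GATA4 higher in VITRO, and GATA6 was lower and GATA4 higher in IFOT-IM. Among markers of other cells, HSD3B1 of the cumulus and granulosa list was lower in all 3 groups, at -2.02, -1.39 and -1.44, while INHBA and FST of that list, CD3E and LYZ of 6 leukocyte markers and FOXJ1 and MUC16 of 5 uterine and oviduct markers were higher in VITRO, at 0.37 to 0.50, and PGR of the last list in IFOT-IM, at 0.40. The part of these markers in the synthetase results was not tested. LYZ measured 0.68 in VIVO and 1.14 in VITRO on average, MUC16 1.08 and 1.52, and GATA4 1.21 and 1.59, all below every array median. In deciles 1 to 4, the weakest signals, the median shift of all probe sets in VITRO against VIVO was 0.24 to 0.26. In pooled embryos fewer cells of a type and less RNA per cell cannot be told apart. The mean over the 10 cumulus and granulosa markers measured lay between 1.54 and 1.66 on all 12 arrays. IFOT-IM replicate 1 stood apart from the other arrays of its group, with an SD over probe sets of 1.55, against 1.64 for both others, and without it 9 instead of 13 cytosolic enzymes were called in IFOT-IM.

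Cytosolic synthetases were lower than in VIVO blastocysts in all 3 other groups, and mitochondrial synthetases mostly did not pass the test. In VITRO 15 of 17 cytosolic enzymes were called lower, against 22.7% of all probe sets. In IFOT-M 9 of 17 were called lower, against 6.87% of all probe sets, and in IFOT-IM 13 of 17, against 12.6%. No cytosolic enzyme was called higher in these comparisons, for which the shares of all probe sets were 25.1%, 3.21% and 7.95% in VITRO, IFOT-M and IFOT-IM. The median log2 fold change of the 17 enzymes was -0.70 in VITRO blastocysts, -0.45 in IFOT-M and -0.48 in IFOT-IM, while that of all probe sets was 0.13, 0.05 and 0.08. Called lower by more than 2-fold were 5 enzymes, against 5.71% of all probe sets, in VITRO, 1 against 0.901% in IFOT-M and 3 against 2.02% in IFOT-IM. The 3 comparisons share the VIVO arrays, so their values are set side by side and are not independent of each other.

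Probe sets as bright as the cytosolic enzymes also shifted downwards. Across the deciles in which the 17 enzymes lay, the median of the decile medians was -0.56 in VITRO blastocysts, -0.16 in IFOT-M and -0.26 in IFOT-IM. Of the 17 enzymes, 13 in VITRO blastocysts, 15 in IFOT-M and 14 in IFOT-IM lay below the median of their own decile. The arrays of 15 enzymes in VITRO and of 13 in each IFOT group lay wholly below the 3 VIVO arrays, a position that held for 23.2%, 15.4% and 17.5% of all probe sets in VITRO, IFOT-M and IFOT-IM.

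**Figure D1:**
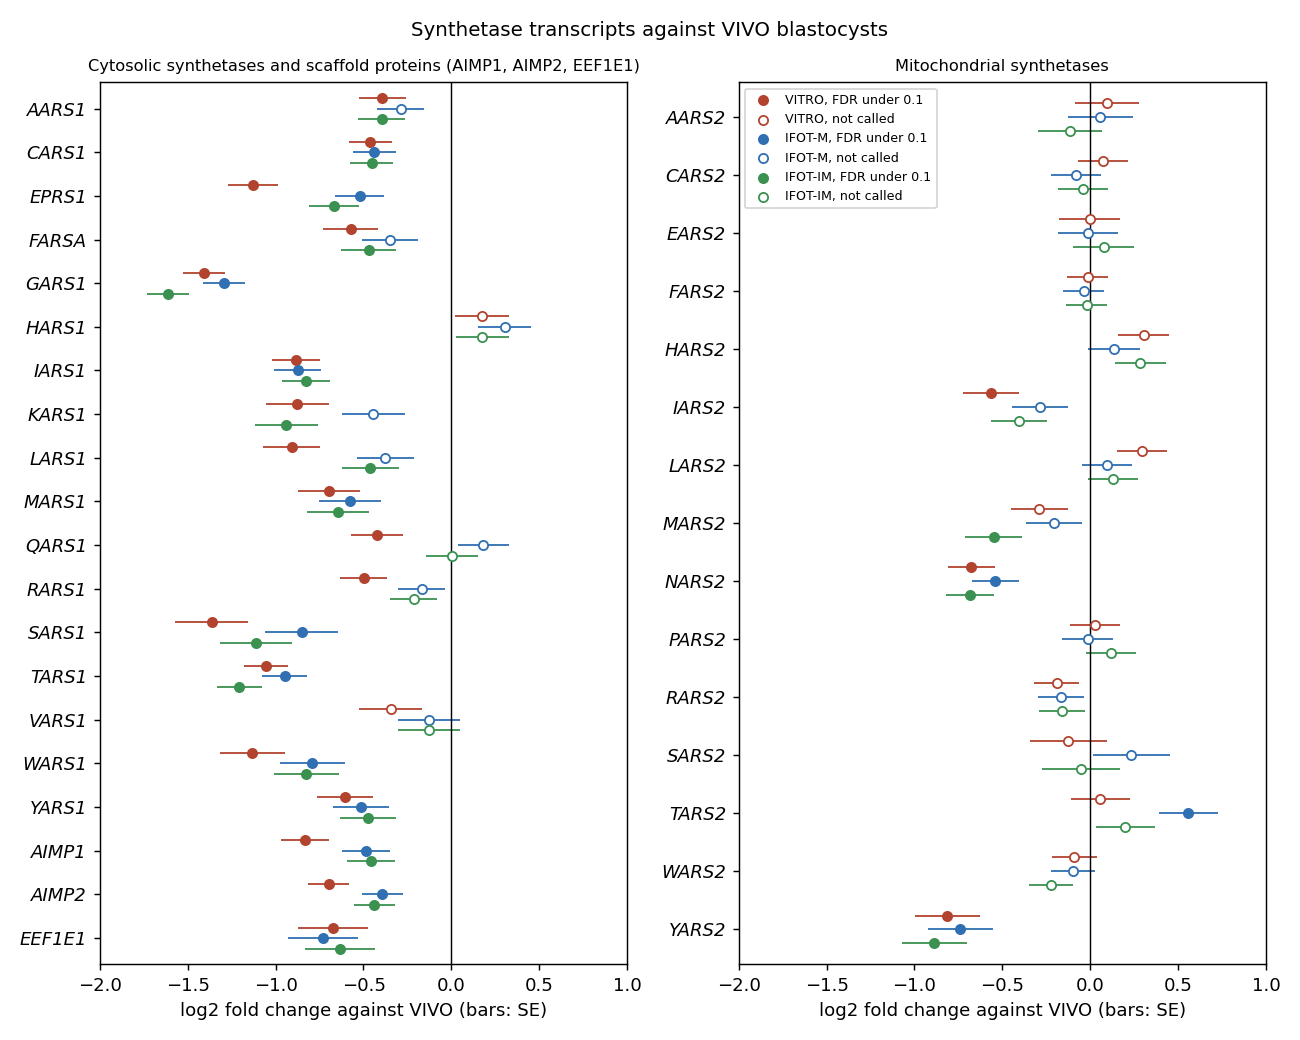
Log2 fold change against VIVO (horizontal axis, bars give the standard error) of every member, with VITRO, IFOT-M and IFOT-IM from top to bottom within a gene, and filled points for calls at an FDR below 0.1. Most cytosolic points lie left of 0, with GARS1 farthest at -1.41, -1.29 and -1.61, whereas most mitochondrial points lie around 0 apart from NARS2, YARS2, IARS2 and MARS2 on the left and TARS2 on the right.

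Quantile normalization of the deposited values left 7 of the 17 enzymes called lower in VITRO, beside 16.6% of all probe sets, and 5 in each of IFOT-M and IFOT-IM, beside 4.08% and 7.06%. Cyclic loess normalization left 7 in VITRO blastocysts, 5 in IFOT-M and 7 in IFOT-IM, beside 14.8%, 5.12% and 7.79% of all probe sets. The 7 enzymes called lower in VITRO were the same under both normalizations, namely EPRS1, GARS1, IARS1, LARS1, SARS1, TARS1 and WARS1. AARS1, QARS1 and RARS1, called lower in VITRO on the deposited values, had values above 0 there after either normalization. One cytosolic enzyme, HARS1, was called higher in VITRO after both. The median of the 17 enzymes stayed below 0 and came closer to it. After quantile normalization it was -0.31 in VITRO blastocysts, -0.33 in IFOT-M and -0.32 in IFOT-IM, and after cyclic loess normalization -0.23, -0.28 and -0.32.

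GARS1, the glycyl-tRNA synthetase of cytosol and mitochondria, had the largest change of any member in each comparison with VIVO. Its log2 value was 4.04, 4.10 and 4.16 on the VITRO arrays, 4.36, 4.13 and 4.16 in IFOT-M, 3.72, 3.96 and 4.01 in IFOT-IM and 5.55, 5.46 and 5.53 in VIVO. All 9 arrays of the other groups lay more than 1 log2 unit below every VIVO array, and the VIVO arrays lay close together. The log2 fold change was -1.41 ± 0.12 (SE) in VITRO with an FDR of 1.27e-05, -1.29 ± 0.12 in IFOT-M with an FDR of 0.000131 and -1.61 ± 0.12 in IFOT-IM with an FDR of 1.87e-05. It stayed called whichever single array was left out, and after cyclic loess normalization it was -0.80, -1.08 and -1.28 in VITRO, IFOT-M and IFOT-IM.

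SARS1 and TARS1 charge the tRNAs of serine and threonine. SARS1 measured 4.01, 4.60 and 4.76 in VITRO, 5.0, 4.89 and 5.02 in IFOT-M, 4.42, 4.60 and 5.10 in IFOT-IM and 5.90, 5.94 and 5.62 in VIVO. VITRO replicate 1 was the lowest array and no array of the 3 groups reached VIVO. Its log2 fold change was -1.36 ± 0.21 in VITRO (FDR 0.000394), -0.85 ± 0.21 in IFOT-M (FDR 0.0293) and -1.11 ± 0.21 in IFOT-IM (FDR 0.00402). TARS1 measured 4.56, 4.86 and 4.81 in VITRO, 4.81, 4.89 and 4.84 in IFOT-M, 4.42, 4.64 and 4.72 in IFOT-IM and 5.70, 5.79 and 5.91 in VIVO. Here too the groups did not overlap with VIVO, and IFOT-IM held the lowest array. The change was -1.06 ± 0.13 in VITRO (FDR 9.01e-05), -0.95 ± 0.13 in IFOT-M (FDR 0.00131) and -1.21 ± 0.13 in IFOT-IM (FDR 0.000169). Both enzymes stayed called in all 3 groups after either normalization, and in VITRO the cyclic loess value was -0.69 for SARS1 and -0.39 for TARS1.

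WARS1 and IARS1 are the enzymes for tryptophan and isoleucine. WARS1 was 3.98, 4.01 and 4.17 in VITRO, 4.37, 4.57 and 4.25 in IFOT-M, 4.17, 4.29 and 4.62 in IFOT-IM and 4.78, 5.24 and 5.54 in VIVO, where the spread was widest. Its change was -1.13 ± 0.19 in VITRO (FDR 0.000655), -0.79 ± 0.19 in IFOT-M (FDR 0.0257) and -0.83 ± 0.19 in IFOT-IM (FDR 0.0114), with no overlap with VIVO. IARS1 was 3.80, 3.88 and 4.10 in VITRO, 3.84, 4.01 and 3.95 in IFOT-M, 3.75, 4.11 and 4.08 in IFOT-IM and 4.78, 4.71 and 4.93 in VIVO. The 3 groups overlapped with each other and stayed below VIVO. The change of IARS1 was -0.88, -0.87 and -0.83 (SE 0.14 each) in VITRO, IFOT-M and IFOT-IM, with FDRs of 0.000425, 0.00304 and 0.00197. IARS1 stayed called in all 3 groups after either normalization, at -0.33 in VITRO after cyclic loess normalization. WARS1 lost its IFOT-IM call after quantile normalization, at -0.49 (FDR 0.104), and its VITRO value was -0.52 after cyclic loess normalization.

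In IFOT-M the calls depended more on single arrays than in the other groups. GARS1, IARS1 and TARS1 remained called in IFOT-M whichever array was left out. SARS1 lost its call there without VIVO replicate 2 (FDR 0.11), as did WARS1 without VIVO replicate 3 (FDR 0.109). EPRS1, CARS1, MARS1 and YARS1 lost it without any of 4 to 6 arrays, with FDRs up to 0.211. The count of cytosolic enzymes called in IFOT-M thereby became 4 without VIVO replicate 2 or VIVO replicate 3 and 5 without IFOT-M replicate 2.

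**Figure D2:**
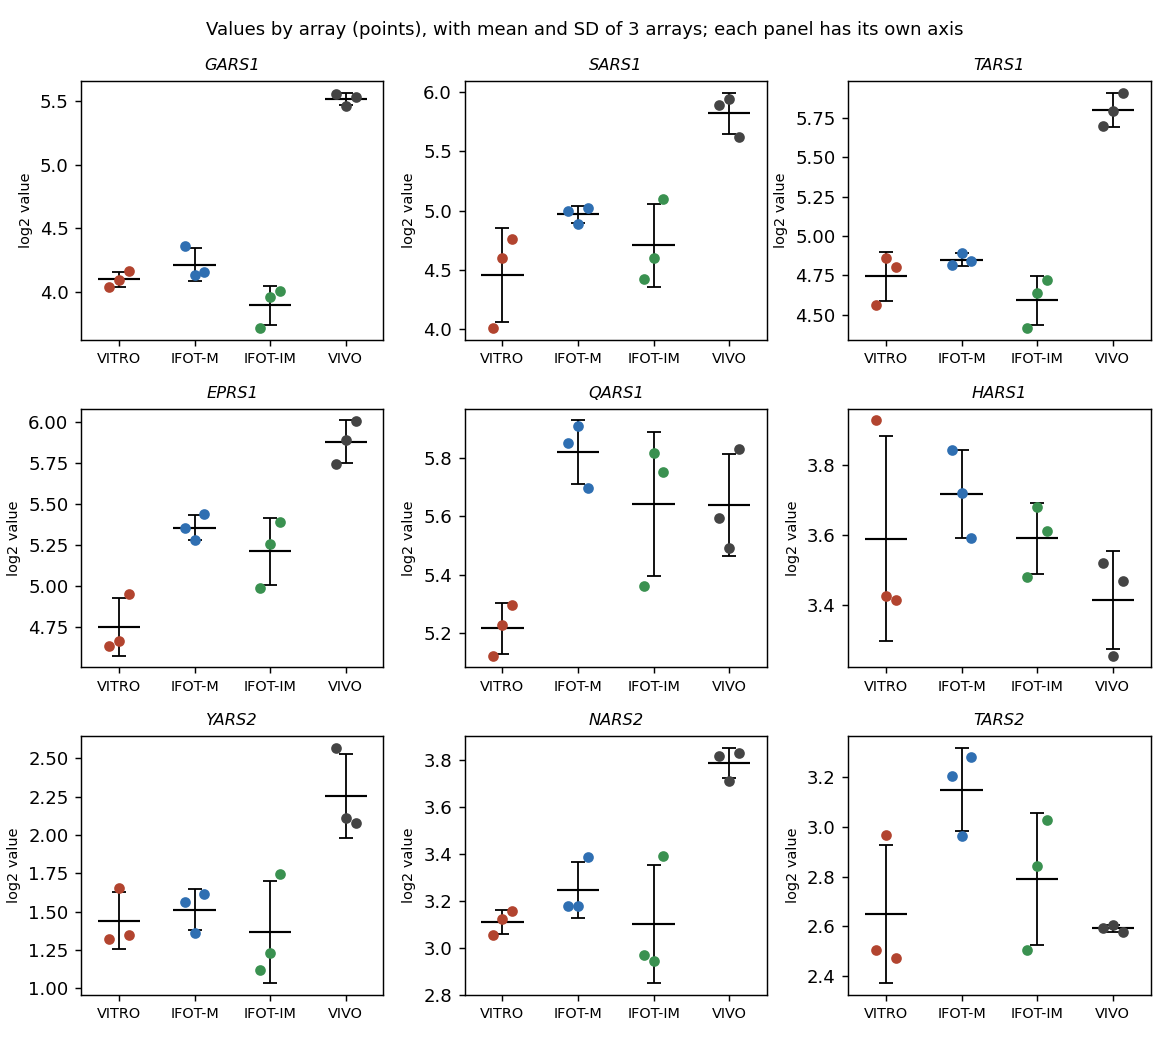
Log2 value (vertical axis, scaled for each gene) on the 3 arrays of VITRO, IFOT-M, IFOT-IM and VIVO, with the mean and SD as bars, for 6 cytosolic and 3 mitochondrial enzymes. VIVO stands above the other groups for GARS1, SARS1, TARS1, EPRS1, YARS2 and NARS2, QARS1 is low on the VITRO arrays, and TARS2 is high on the IFOT-M arrays.

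The multisynthetase complex binds a set of cytosolic synthetases together in the cell, and 7 of its enzymes were measured, namely EPRS1, IARS1, KARS1, LARS1, MARS1, QARS1 and RARS1. All 7 were called lower in VITRO blastocysts, 3 in IFOT-M and 5 in IFOT-IM, beside the 22.7%, 6.87% and 12.6% of all probe sets. Bright probe sets were called lower more often, and 5, 6 and 5 of the 7 lay below the median of their own decile. After quantile as after cyclic loess normalization 3 were called lower in VITRO (EPRS1, IARS1 and LARS1), 1 in IFOT-M (IARS1) and 2 in IFOT-IM (IARS1 and KARS1). Of the 10 enzymes outside the complex, 8 were called lower in VITRO blastocysts, 6 in IFOT-M and 8 in IFOT-IM. EPRS1, which charges both glutamate and proline tRNAs, measured 4.63, 4.66 and 4.95 in VITRO, 5.35, 5.28 and 5.43 in IFOT-M, 4.99, 5.25 and 5.39 in IFOT-IM and 5.74, 5.89 and 6.0 in VIVO. VITRO lay lowest, apart from both IFOT groups, and VIVO highest. The change of EPRS1 against VIVO was -1.13 ± 0.14 in VITRO (FDR 0.00011), -0.52 ± 0.14 in IFOT-M (FDR 0.0445) and -0.67 ± 0.14 in IFOT-IM (FDR 0.00779). After quantile normalization EPRS1 was called in VITRO alone, at -0.57, and its values of -0.33 in IFOT-M and -0.32 in IFOT-IM had FDRs of 0.166 and 0.126. LARS1, the leucine enzyme that also senses leucine for mTORC1 in human cells, measured 2.76, 3.40 and 2.93 in VITRO, 3.53, 3.62 and 3.53 in IFOT-M, 3.39, 3.62 and 3.42 in IFOT-IM and 3.78, 3.91 and 4.13 in VIVO. VITRO replicate 2 reached the range of IFOT-IM, and the other VITRO arrays lay below it. LARS1 changed by -0.91 ± 0.16 in VITRO (FDR 0.00112) and by -0.46 ± 0.16 in IFOT-IM (FDR 0.0792), and its value of -0.38 in IFOT-M had an FDR of 0.212. After quantile normalization LARS1 was called in VITRO, at -0.63, and not in IFOT-IM, at -0.25 (FDR 0.452).

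KARS1 encodes the lysine enzyme of cytosol and mitochondria. It measured 4.60, 5.07 and 5.13 in VITRO, 5.46, 5.26 and 5.37 in IFOT-M, 4.48, 5.09 and 5.04 in IFOT-IM and 5.74, 5.79 and 5.90 in VIVO. All 9 arrays lay below VIVO, with IFOT-M nearest to it. KARS1 changed by -0.88 ± 0.18 in VITRO (FDR 0.00254) and -0.94 ± 0.18 in IFOT-IM (FDR 0.00458), and the value of -0.45 ± 0.18 in IFOT-M had an FDR of 0.176. After quantile and cyclic loess normalization KARS1 was called lower in IFOT-IM only, at -0.61 and -0.55, and not in VITRO, at -0.31 and -0.19. QARS1, the glutamine enzyme, measured 5.12, 5.23 and 5.29 in VITRO, 5.85, 5.91 and 5.70 in IFOT-M, 5.36, 5.82 and 5.75 in IFOT-IM and 5.59, 5.49 and 5.83 in VIVO. Only VITRO lay apart from VIVO, and both IFOT groups overlapped with it. The value of QARS1 was -0.42 ± 0.15 in VITRO (FDR 0.0375), 0.18 ± 0.15 in IFOT-M (FDR 0.539) and 0.0039 ± 0.15 in IFOT-IM (FDR 0.99). The VITRO call was lost without VIVO replicate 3 (FDR 0.142) and its sign turned after quantile normalization, at 0.16. In IFOT-IM, QARS1 was called higher after quantile and cyclic loess normalization, at 0.35 and 0.40, and in IFOT-M after cyclic loess normalization alone, at 0.42.

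For the remaining cytosolic enzymes fold changes only are given. In VITRO the values were -0.70 for MARS1, -0.60 for YARS1, -0.57 for FARSA, -0.50 for RARS1, -0.46 for CARS1 and -0.39 for AARS1, all called lower, beside -0.35 for VARS1 and 0.17 for HARS1. In IFOT-M they were -0.58 for MARS1, -0.51 for YARS1 and -0.44 for CARS1, all called, beside -0.35 for FARSA, -0.29 for AARS1, -0.17 for RARS1, -0.13 for VARS1 and 0.30 for HARS1. In IFOT-IM they were -0.64 for MARS1, -0.48 for YARS1, -0.47 for FARSA, -0.45 for CARS1 and -0.40 for AARS1, all called, beside -0.21 for RARS1, -0.13 for VARS1 and 0.18 for HARS1. These enzymes charge methionine, tyrosine, phenylalanine (the catalytic subunit FARSA), arginine, cysteine, alanine, valine and histidine, and HARS1 and VARS1 were called in none of the comparisons. The same 9 cytosolic enzymes were called lower in all 3 groups, AARS1, FARSA, KARS1 and LARS1 in VITRO and IFOT-IM, and QARS1 and RARS1 in VITRO alone. The share of all probe sets with these patterns is not given here, and the 3 comparisons share the VIVO arrays. Whether these patterns differ between groups was tested only in the direct comparisons given further on. AARS1 lost its VITRO call without VITRO replicate 1 or VIVO replicate 2 (FDR up to 0.111). In IFOT-IM, AARS1, FARSA, LARS1 and YARS1 each lost theirs without any of 3 to 6 arrays, with FDRs up to 0.247.

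By catalytic fold, 8 of 9 class I enzymes and 6 of 7 class II enzymes of the cytosol were called lower in VITRO, beside 22.7% of all probe sets. The counts were 5 and 3 in IFOT-M, beside 6.87%, whereas both were 6 in IFOT-IM, beside 12.6%. Bright probe sets were called lower more often, with shares of 62.4%, 18.9% and 34.7% in decile 9 for the same order of groups. Of the class I enzymes 7, 8 and 7 lay below the median of their own decile, and of the class II enzymes 5, 6 and 6. EPRS1, which joins a domain of either class, was counted in neither. Both folds held called and uncalled members, and the counts were not repeated after normalization.

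Known ATF4 targets made up 11 of the 17 cytosolic enzymes, namely AARS1, CARS1, EPRS1, GARS1, IARS1, LARS1, MARS1, SARS1, TARS1, WARS1 and YARS1. All 11 were called lower in VITRO blastocysts, 9 in IFOT-M and 11 in IFOT-IM, beside 22.7%, 6.87% and 12.6% of all probe sets. The medians of the 11 targets were -0.91, -0.58 and -0.67. The other 6, namely FARSA, HARS1, KARS1, QARS1, RARS1 and VARS1, had 4 called lower in VITRO blastocysts, 0 in IFOT-M and 2 in IFOT-IM, and their medians were -0.46, -0.15 and -0.17. The arrays of all 11 targets lay wholly below VIVO in each of the 3 groups, as did those of 23.2%, 15.4% and 17.5% of all probe sets. Among the remaining 6 this held for 4 enzymes in VITRO blastocysts, 2 in IFOT-M and 2 in IFOT-IM. A test of the difference between the sets was not made.

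Both normalizations lowered the counts of targets. With quantile normalization 7 of the 11 targets were called lower in VITRO blastocysts, 5 in IFOT-M and 4 in IFOT-IM, and of the other 6 enzymes 0, 0 and 1. With cyclic loess normalization it was 7, 5 and 6 of the 11 targets and 0, 0 and 1 of the other 6. The shares of all probe sets called lower were 16.6%, 4.08% and 7.06% after quantile and 14.8%, 5.12% and 7.79% after cyclic loess normalization. Median values of the 11 targets were -0.48, -0.38 and -0.38 after quantile normalization in VITRO, IFOT-M and IFOT-IM, beside -0.04, 0.00087 and 0.06 for the others. Leaving out VIVO replicate 2 or VIVO replicate 3 reduced the 9 targets called in IFOT-M to 4, and leaving out IFOT-M replicate 2 reduced them to 5. These counts by ATF4 target under the normalizations and without single arrays were chosen after seeing the data.

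**Figure D3:**
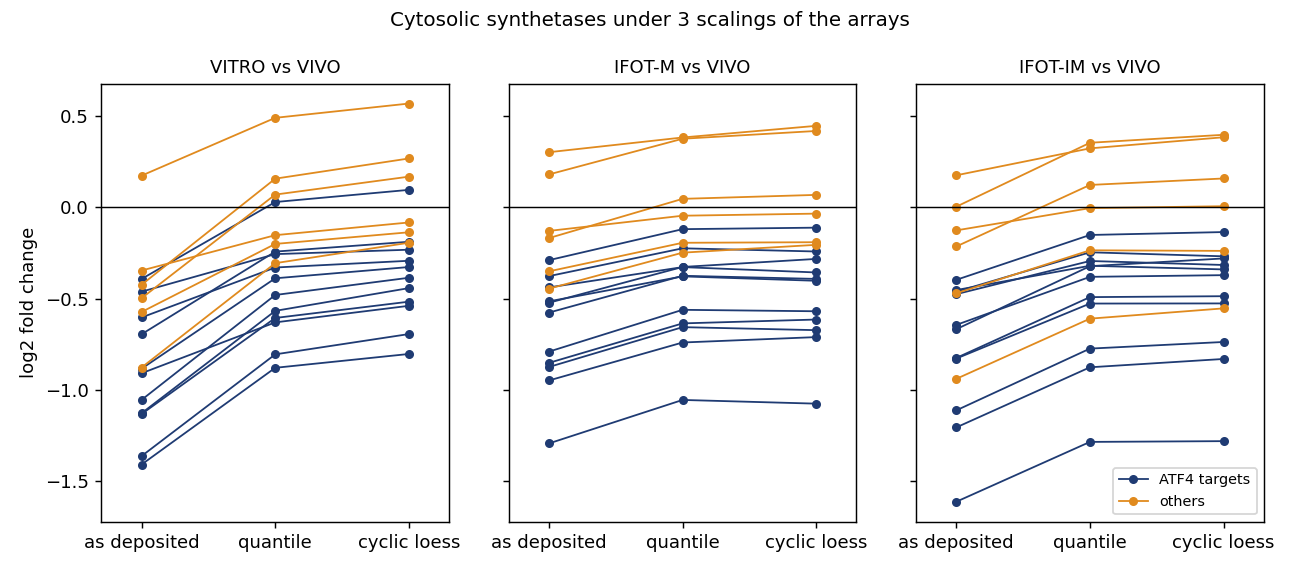
Log2 fold change against VIVO (vertical axis) of the 17 cytosolic enzymes on the deposited values and after quantile and cyclic loess normalization, 1 line per enzyme, with ATF4 targets in blue and the other 6 in orange. Values move upwards after either normalization, most in VITRO, where the median of the 11 targets stays below 0 at -0.48 after quantile normalization and that of the others is -0.04.

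The 3 scaffold proteins hold the multisynthetase complex together. AIMP1 measured 4.70, 5.09 and 5.09 in VITRO, 5.41, 5.32 and 5.18 in IFOT-M, 5.21, 5.45 and 5.34 in IFOT-IM and 5.73, 5.74 and 5.91 in VIVO. AIMP2 measured 3.94, 4.02 and 4.0 in VITRO, 4.22, 4.27 and 4.39 in IFOT-M, 4.26, 4.15 and 4.33 in IFOT-IM and 4.77, 4.53 and 4.75 in VIVO. For both genes every array of the other groups lay below VIVO and VITRO lay lowest. EEF1E1 measured 2.45, 2.97 and 2.37 in VITRO, 2.34, 2.36 and 2.92 in IFOT-M, 2.65, 2.62 and 2.64 in IFOT-IM and 2.96, 3.48 and 3.36 in VIVO. VITRO replicate 2 reached the lowest VIVO array, and the IFOT arrays stayed below VIVO.

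All 3 scaffold genes were called lower in each group, beside 22.7%, 6.87% and 12.6% of all probe sets in VITRO, IFOT-M and IFOT-IM. In each comparison all 3 lay below the median of their own decile, which itself shifted downwards. The change of AIMP1 was -0.83 ± 0.14 in VITRO (FDR 0.000674), -0.49 ± 0.14 in IFOT-M (FDR 0.0541) and -0.46 ± 0.14 in IFOT-IM (FDR 0.0422). The change of AIMP2 was -0.70 ± 0.11 in VITRO (FDR 0.000673), -0.39 ± 0.11 in IFOT-M (FDR 0.0637) and -0.44 ± 0.11 in IFOT-IM (FDR 0.0246). That of EEF1E1 was -0.67 ± 0.20 in VITRO (FDR 0.0197), -0.73 ± 0.20 in IFOT-M (FDR 0.0498) and -0.63 ± 0.20 in IFOT-IM (FDR 0.0537). After quantile normalization EEF1E1 alone was called, in VITRO, and after cyclic loess normalization EEF1E1 alone was called, in all 3 groups. Of all probe sets, 16.6% were called lower in VITRO after quantile normalization. After cyclic loess normalization it was 14.8%, 5.12% and 7.79% in VITRO, IFOT-M and IFOT-IM. In IFOT-M each of the 3 calls was lost without any of 4 or 5 arrays (FDR up to 0.201), and in IFOT-IM AIMP1 lost its call without IFOT-IM replicate 1 or VIVO replicate 3 and EEF1E1 without any of 4 arrays (FDR up to 0.18).

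Mitochondrial synthetases had a median below that of all probe sets, by less than the cytosolic enzymes. In VITRO 3 of 15 were called lower and none higher, in IFOT-M 2 lower and 1 higher, and in IFOT-IM 3 lower and none higher. The shares of all probe sets called lower were 22.7%, 6.87% and 12.6% in VITRO, IFOT-M and IFOT-IM. Those called higher were 25.1%, 3.21% and 7.95%. Median log2 fold changes of the 15 enzymes were -0.01 in VITRO blastocysts, -0.04 in IFOT-M and -0.05 in IFOT-IM. Of the 15 enzymes, 10 in VITRO blastocysts, 11 in IFOT-M and 11 in IFOT-IM lay below the median of their own decile. In VITRO the mitochondrial median became -0.14 after quantile and -0.12 after cyclic loess normalization, beside -0.31 and -0.23 for the cytosolic enzymes. The median of all probe sets was then 0.0033 and 0.01. None of the called enzymes reached a fold change of 2.

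YARS2 and NARS2, the mitochondrial enzymes for tyrosine and asparagine, were lower in all 3 groups. YARS2 measured 1.32, 1.65 and 1.35 in VITRO, 1.56, 1.36 and 1.62 in IFOT-M, 1.12, 1.23 and 1.74 in IFOT-IM and 2.57, 2.11 and 2.08 in VIVO. NARS2 measured 3.05, 3.12 and 3.16 in VITRO, 3.18, 3.18 and 3.39 in IFOT-M, 2.97, 2.94 and 3.39 in IFOT-IM and 3.82, 3.71 and 3.83 in VIVO. All arrays of the 3 groups lay below all VIVO arrays for both genes, and the 3 groups overlapped with each other, apart from NARS2 in VITRO and IFOT-M. YARS2 changed by -0.81 ± 0.19 in VITRO (FDR 0.00505), -0.74 ± 0.19 in IFOT-M (FDR 0.0347) and -0.89 ± 0.19 in IFOT-IM (FDR 0.00787). NARS2 changed by -0.68 ± 0.14 in VITRO (FDR 0.00234), -0.54 ± 0.14 in IFOT-M (FDR 0.0347) and -0.69 ± 0.14 in IFOT-IM (FDR 0.00577). After cyclic loess normalization YARS2 had -1.05, -0.83 and -1.03 and was called in all 3 groups, as after quantile normalization. NARS2 had -0.40 in VITRO after quantile and -0.37 after cyclic loess normalization, both called, and lost its IFOT-M call after quantile normalization, at -0.39 (FDR 0.124). The means of YARS2, 1.44, 1.51 and 1.37 in VITRO, IFOT-M and IFOT-IM, lay below the median of every array. No measure of background was used here, so the fold of YARS2 is that of the measured signals and its transcript was not shown to be above background in those groups. In IFOT-M the call of YARS2 was lost without IFOT-M replicate 2 or VIVO replicate 1 (FDR up to 0.128) and that of NARS2 without IFOT-M replicate 1, IFOT-M replicate 2 or VIVO replicate 3 (FDR up to 0.119).

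IARS2 and MARS2, for isoleucine and methionine, were each called in 1 comparison. IARS2 measured 3.42, 3.25 and 3.52 in VITRO, 3.93, 3.52 and 3.58 in IFOT-M, 3.30, 3.76 and 3.61 in IFOT-IM and 4.03, 3.77 and 4.08 in VIVO. IFOT-M replicate 1 lay within the VIVO range, and the arrays of VITRO and IFOT-IM lay below it. The change of IARS2 was -0.56 ± 0.16 in VITRO (FDR 0.0156), and the values of -0.29 in IFOT-M and -0.40 in IFOT-IM had FDRs of 0.349 and 0.113. After both normalizations IARS2 was not called in VITRO. MARS2 measured 2.49, 2.36 and 2.76 in VITRO, 2.73, 2.64 and 2.49 in IFOT-M, 2.05, 2.18 and 2.61 in IFOT-IM and 2.74, 2.97 and 2.78 in VIVO. VITRO replicate 3 overlapped with VIVO, and IFOT-IM replicates 1 and 2 were the lowest arrays. MARS2 changed by -0.55 ± 0.16 in IFOT-IM (FDR 0.0396), a call lost without IFOT-IM replicate 1, IFOT-IM replicate 2 or VIVO replicate 2 (FDR up to 0.151), and its values of -0.29 in VITRO and -0.21 in IFOT-M had FDRs of 0.167 and 0.521.

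TARS2, the mitochondrial threonine enzyme, was the only member called higher than in VIVO on the deposited values. It measured 2.51, 2.97 and 2.47 in VITRO, 3.21, 2.96 and 3.28 in IFOT-M, 2.51, 2.84 and 3.03 in IFOT-IM and 2.59, 2.61 and 2.58 in VIVO. IFOT-M lay wholly above VIVO, as did 16.1% of all probe sets there, while VITRO and IFOT-IM each had arrays on both sides of it. The change was 0.56 ± 0.17 in IFOT-M (FDR 0.07), and the values of 0.06 in VITRO and 0.20 in IFOT-IM had FDRs of 0.805 and 0.458. The IFOT-M call was lost after quantile normalization, at 0.54 (FDR 0.123), and kept after cyclic loess normalization, at 0.59 (FDR 0.0531). It was also lost without any of IFOT-M replicates 1 and 3 and VIVO replicates 1, 2 and 3 (FDR up to 0.214).

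The other 10 mitochondrial enzymes passed the test in no comparison with VIVO. In VITRO their values ran from -0.19 for RARS2 to 0.30 for HARS2, with -0.12 for SARS2, -0.09 for WARS2, -0.01 for FARS2, -0.0038 for EARS2, 0.03 for PARS2, 0.07 for CARS2, 0.10 for AARS2 and 0.30 for LARS2. In IFOT-M they were -0.17 for RARS2, -0.10 for WARS2, -0.08 for CARS2, -0.04 for FARS2, -0.01 for PARS2 and EARS2, 0.06 for AARS2, 0.09 for LARS2, 0.13 for HARS2 and 0.23 for SARS2. In IFOT-IM they were -0.22 for WARS2, -0.16 for RARS2, -0.11 for AARS2, -0.05 for SARS2, -0.04 for CARS2, -0.02 for FARS2, 0.08 for EARS2, 0.12 for PARS2, 0.13 for LARS2 and 0.29 for HARS2. EARS2 is the mitochondrial glutamate enzyme, which in mammals also loads the glutamine tRNA with glutamate, and PARS2 is the proline enzyme.

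The histidine enzymes stood on the other side of 0 from most of the family. Of the 35 members, 25 had values below 0 in all 3 comparisons with VIVO and 4 had values above 0 in all 3, namely HARS1, HARS2, LARS2 and TARS2. HARS1 and HARS2 are next to each other in the RefSeq annotation of the cow, and neither was called on the deposited values. HARS1 measured 3.93, 3.42 and 3.41 in VITRO, 3.84, 3.72 and 3.59 in IFOT-M, 3.48, 3.68 and 3.61 in IFOT-IM and 3.52, 3.26 and 3.47 in VIVO. Only its IFOT-M arrays lay wholly above VIVO, as did those of 16.1% of all probe sets. HARS2 measured 2.98, 3.05 and 3.37 in VITRO, 3.12, 2.71 and 3.07 in IFOT-M, 3.26, 3.04 and 3.05 in IFOT-IM and 2.87, 2.76 and 2.86 in VIVO. Its VITRO and IFOT-IM arrays lay above VIVO, as did those of 26.9% and 18.8% of all probe sets, and IFOT-M replicate 2 lay below VIVO. After both quantile and cyclic loess normalization both were called higher in VITRO, HARS1 at 0.49 and 0.57 and HARS2 at 0.45 and 0.49, beside 12.9% and 13.6% of all probe sets called higher. HARS1 and HARS2 were named here after their values had been seen.

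For 12 amino acids both a cytosolic and a mitochondrial enzyme were measured. The value against VIVO was lower for the cytosolic enzyme in 11 of the 12 pairs in VITRO blastocysts, 10 in IFOT-M and 11 in IFOT-IM. Their median difference, cytosolic minus mitochondrial, was -0.51, -0.36 and -0.42 in VITRO, IFOT-M and IFOT-IM. Tyrosine was the pair that ran the other way in all 3 groups, since YARS2 had values of -0.81, -0.74 and -0.89 and YARS1 of -0.60, -0.51 and -0.48. Threonine had the widest gap in IFOT-M, with -0.95 for TARS1 and 0.56 for TARS2. Both enzymes of a pair were called lower for isoleucine and tyrosine in VITRO, for tyrosine in IFOT-M and for methionine and tyrosine in IFOT-IM. Mitochondrial probe sets had weaker signals, spread from decile 3 to decile 9, and the median shift of all probe sets was above 0 up to decile 7 and below 0 from decile 8 in each comparison, so the gap between compartments and the difference in signal cannot be told apart on the deposited values.

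**Figure D4:**
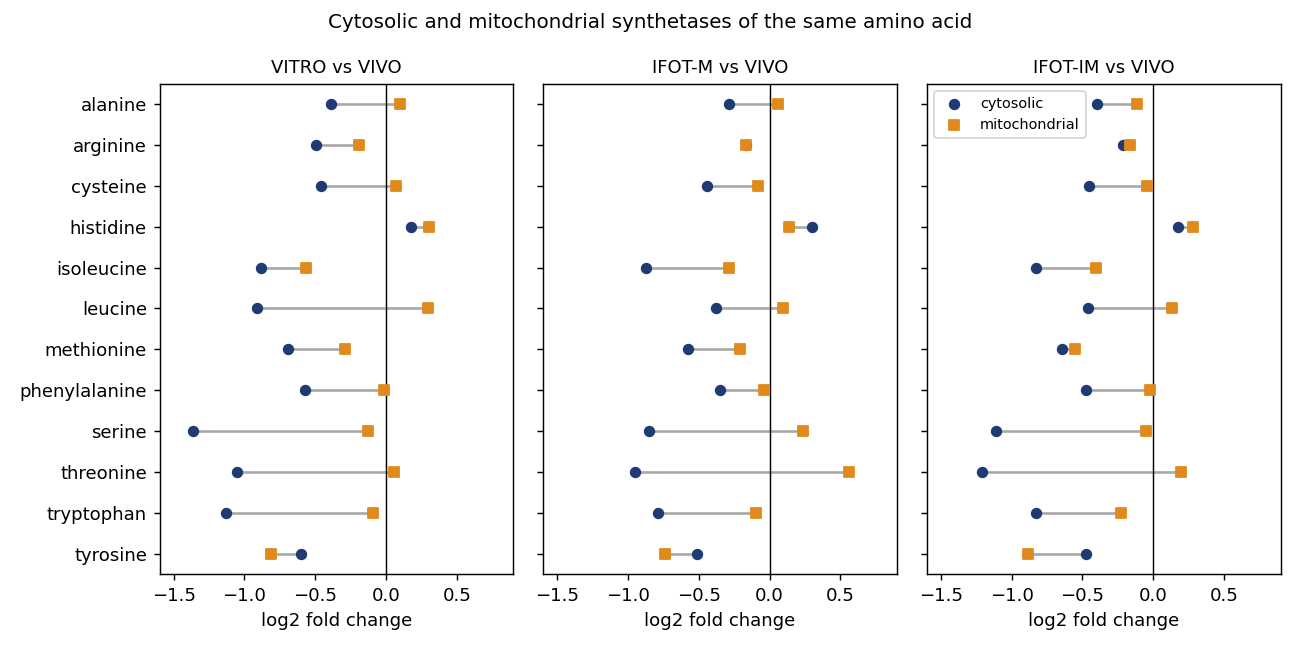
Log2 fold change against VIVO (horizontal axis) of the cytosolic (circles) and mitochondrial (squares) enzyme for each of 12 amino acids, in VITRO, IFOT-M and IFOT-IM. The circle lies left of the square for 11, 10 and 11 amino acids, tyrosine is reversed in all 3 panels, and for arginine in IFOT-M the square covers the circle.

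**Figure D5:**
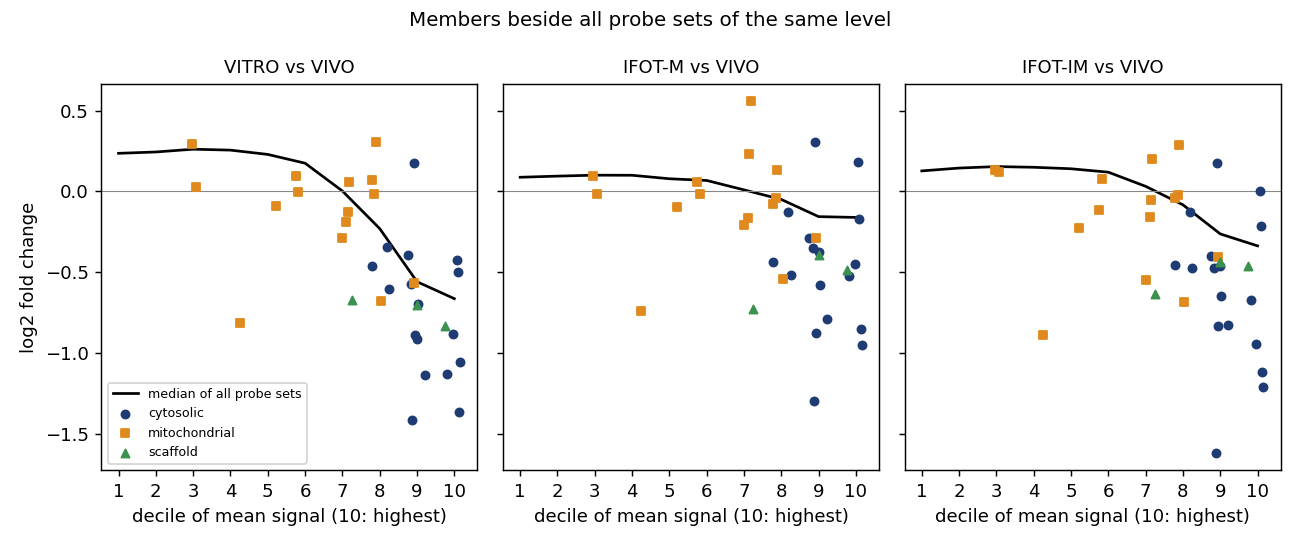
Log2 fold change against VIVO (vertical axis) of each member by the decile of mean signal of its probe set (horizontal axis), with the median of all probe sets in a decile as the line. In VITRO the line falls to -0.66 in the highest decile, and 13 of the 17 cytosolic enzymes lie below the median of their own decile.

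VITRO was also compared directly with both IFOT groups, all from slaughterhouse oocytes. VITRO differs from IFOT-M in where fertilization and development took place, and from IFOT-IM also in where the oocyte matured. Against IFOT-M, 5 of the 35 members were called lower in VITRO and none higher, beside 12.9% and 8.38% of all probe sets. They were EPRS1 at -0.61 ± 0.14 (FDR 0.0146), QARS1 at -0.60 ± 0.15 (FDR 0.018), LARS1 at -0.53 ± 0.16 (FDR 0.0467), TARS2 at -0.50 ± 0.17 (FDR 0.0657) and AIMP2 at -0.31 ± 0.11 (FDR 0.0953). The VITRO arrays lay wholly below the IFOT-M arrays for EPRS1, QARS1, LARS1 and AIMP2, which held for 17.6% of all probe sets, and overlapped with them for TARS2. GARS1, lowest relative to VIVO in all groups, had a value of -0.12 ± 0.12 between VITRO and IFOT-M (FDR 0.545). The count of 5 among 35 members was close to the share of all probe sets. In deciles 9 and 10 of mean signal, 37.4% and 52.5% of all probe sets were called lower in VITRO than in IFOT-M. Of the 17 cytosolic enzymes 6 lay below the median of their own decile, and their median was -0.22, beside -0.33 for the decile medians.

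These direct calls depended on the scaling. After quantile normalization 0 members were called between VITRO and IFOT-M, and after cyclic loess normalization IARS1 and TARS1 were called higher in VITRO, at 0.35 and 0.33, and none lower, beside 5.6% and 5.39% of all probe sets. EPRS1 and QARS1 remained called lower whichever array was left out, whereas LARS1 and TARS2 lost their calls without any of 4 arrays and AIMP2 without any of 11 (FDR up to 0.242). The number of members called fell to 2 without VITRO replicate 1 or IFOT-M replicate 1, and to 3 without IFOT-M replicate 2 or IFOT-M replicate 3.

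Between VITRO and IFOT-IM, EPRS1 alone was called lower, at -0.46 ± 0.14 (FDR 0.081), beside 5.86% of all probe sets. LARS1 and QARS1 followed with values of -0.45 and -0.43 and FDRs of 0.139 and 0.118. The VITRO arrays of EPRS1 and QARS1 lay below all IFOT-IM arrays, a share of 11.2% among all probe sets, and those of LARS1 overlapped with them. The call of EPRS1 was lost without any of 9 of the 12 arrays (FDR up to 0.247), which were all 3 IFOT-M arrays, VITRO replicates 1 and 2, IFOT-IM replicates 2 and 3 and VIVO replicates 2 and 3. After quantile and cyclic loess normalization GARS1 and TARS1 were called higher in VITRO than in IFOT-IM, GARS1 at 0.41 and 0.48 and TARS1 at 0.40 and 0.45, and no member was called lower, while 3.19% and 2.83% of all probe sets were called higher.

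IFOT-M and IFOT-IM, which differ in where the oocyte matured, gave 0 calls among the 35 members and 0 among all probe sets in limma. Without adjustment 2 members had a p below 0.05, namely KARS1 at 0.49 ± 0.18 and GARS1 at 0.32 ± 0.12 in IFOT-M relative to IFOT-IM, and the smallest FDR of a member was 0.654. The IFOT-M arrays of both genes lay above all IFOT-IM arrays, as did those of 7.54% of all probe sets. IFOT-IM replicate 1, the array that stood apart in its group, was the lowest for both.

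Genes around the tRNA cycle were counted on the deposited values only, to be read beside the 22.7%, 6.87% and 12.6% of all probe sets that were called lower in the order VITRO, IFOT-M, IFOT-IM. The shares called higher were 25.1%, 3.21% and 7.95% in the same order. ATF4 itself was called lower in VITRO at -0.43 ± 0.13 (FDR 0.0178) and in IFOT-IM at -0.51 ± 0.13 (FDR 0.0189), and had -0.29 in IFOT-M (FDR 0.207). EIF2AK4, which encodes GCN2, was called lower in all 3 groups, at -0.94 in VITRO blastocysts, -0.51 in IFOT-M and -0.71 in IFOT-IM. In the list of eIF2 kinases and ATF4, 4 of 10 genes were lower in VITRO blastocysts, 2 in IFOT-M and 3 in IFOT-IM, and no gene was higher. Of 23 ATF4 targets other than synthetases, 8 were lower and 3 higher in VITRO, 6 lower and 1 higher in IFOT-M, and 9 lower and 1 higher in IFOT-IM. The median of these 23 was -0.10, -0.30 and -0.18, and 13, 18 and 17 of them had values below 0. The genes named next are those with the largest changes. ASNS, asparagine synthetase, fell by 1.77 in VITRO blastocysts, 1.88 in IFOT-M and 2.32 in IFOT-IM on the log2 scale. PHGDH, the first enzyme of serine synthesis, fell by 1.40, 1.40 and 1.82 in the same order of groups. SLC7A5, an importer of large neutral amino acids, fell by 1.82 in VITRO, and PSAT1, the next enzyme of serine synthesis, fell by 1.47 in IFOT-IM.

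Among genes that make and modify tRNA, 23 of processing and export were measured, and 11 were lower and 1 higher in VITRO, 2 lower in IFOT-M, and 6 lower and 1 higher in IFOT-IM. TRMT10C, a subunit of mitochondrial RNase P, was called in all 3 at -1.22, -0.64 and -0.77. Of 44 tRNA modification genes, 11 were lower and 1 higher in VITRO, 1 lower in IFOT-M, and 7 lower and 1 higher in IFOT-IM, with NSUN2, a tRNA methyltransferase, at -1.36 in VITRO. The modification counts were close to or below the share of all probe sets, whereas more processing and export genes were called lower in VITRO and IFOT-IM. The lists differ in signal. Of the 23 processing and export genes, 14 in VITRO and 14 in IFOT-IM lay below the median of their own decile. Of the 44 modification genes, 38 and 32 did, a higher share than for processing and export. Of 23 genes of RNA polymerase III and its factors, which transcribe tRNA genes, 8 were lower in VITRO blastocysts, 1 in IFOT-M and 2 in IFOT-IM, and POLR3K was in each of these counts at -1.12, -0.89 and -1.16.

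Of 10 mitochondrial translation factors, 6 were lower in VITRO blastocysts, 2 in IFOT-M and 3 in IFOT-IM, among them the elongation factors GFM1 at -0.76, -0.59 and -0.55 and GFM2 at -0.85, -0.54 and -0.65. Of 7 cytosolic elongation factors, 2 were lower and 2 higher in VITRO, with EEF2 at -0.79 and EEF1A2 at 0.62, and none was called in either IFOT group. Both VITRO counts were near the shares of all probe sets. Of the 4 genes that amidate glutamyl-tRNA or formylate methionyl-tRNA in mitochondria, MTFMT and QRSL1 were lower in VITRO, at -0.81 and -0.76, and none was called in the IFOT groups. Of 3 genes that clear mischarged tRNA, PRORSD1 and DTD1 were lower in VITRO, at -0.83 and -0.82, DTD2 was higher there at 0.62, and PRORSD1 was lower in IFOT-IM at -0.46. No difference between these lists was tested.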

How the data were processed

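The authors processed the raw intensities with Expression Console by RMA (background correction, quantile normalization and summary per probe set), and the deposited values were read as log2 because of their range. The array distributions differ between groups, and how the normalization step was run is not given in the sources used here. Symbols came from the platform annotation, with neighbouring genes from RefSeq. The 24415 probe sets with the highest mean of 26773 were tested with limma 3.58.1 in R 4.3.3, all 4 groups in 1 fit with 8 residual degrees of freedom, two-sided, with Benjamini-Hochberg FDR over all probe sets tested. The series text calls the 3 pools of a group independent replicates, and the number of arrays limits the precision. Members, gene lists and tests were chosen with earlier results of these data known. Fold changes are given for all members. Values on each array are given for the 4 cytosolic and 3 mitochondrial members with the largest change in each comparison with VIVO, the scaffold genes, GARS1, KARS1, members called higher, and the 3 members with the largest change in direct comparisons with a call, 17 genes in all. Of other lists up to 3 called genes are named. The pipeline was tested on simulated data. Alternatives were quantile and cyclic loess normalization, no filter and a stricter filter keeping 13386 probe sets, only the groups compared, robust and trended variance, array weights, RNA integrity as a covariate, replicate number as a block, an FDR below 0.05, a fold change above 2 and leaving out each array.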

Additional observations from a re-analysis of the deposited data

How the results depend on the processing

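Cytosolic enzymes called in VITRO, 15 on the deposited values, were 8 after quantile and 8 after cyclic loess normalization, in each case 7 lower and 1 higher. In IFOT-M the 9 calls became 5 after quantile normalization, and in IFOT-IM the 13 calls became 6 after quantile (5 lower, 1 higher) and 8 after cyclic loess normalization (7 lower, 1 higher). With a fold change above 2 required they were 5, 1 and 3 in VITRO, IFOT-M and IFOT-IM. The ATF4 targets among them, 11, 9 and 11 called, were 7, 5 and 4 after quantile and 7, 5 and 6 after cyclic loess normalization. Mitochondrial calls, 3 in each group, became 1 in IFOT-M after quantile normalization, and 0 in each group with a fold change above 2. Calls between VITRO and IFOT-M, 5, became 0 (quantile), 2 (cyclic loess, both higher), 9 (stricter filter), 2 (only the groups compared), 3 (FDR below 0.05) and 0 (fold change above 2). Calls between VITRO and IFOT-IM, 1, became 2 after quantile and 2 after cyclic loess normalization, all higher, 2 with the stricter filter, and 0 with only the groups compared, RNA integrity as a covariate, an FDR below 0.05 or a fold change above 2. IFOT-M against IFOT-IM gave 0 calls among members throughout. The stricter filter and the smaller fits test fewer probe sets or arrays, and otherwise the cause was not tested.

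When each array was left out in turn, cytosolic calls ranged from 14 to 16 in VITRO, 4 to 10 in IFOT-M and 9 to 13 in IFOT-IM. ATF4 targets ranged from 10 to 11, 4 to 9 and 8 to 11 in VITRO, IFOT-M and IFOT-IM. Mitochondrial calls ranged from 3 to 5 in VITRO (5 without VITRO replicate 3), 1 to 3 in IFOT-M (1 without IFOT-M replicate 1, IFOT-M replicate 2, VIVO replicate 1 or VIVO replicate 3) and 2 to 3 in IFOT-IM. VITRO against IFOT-M ranged from 2 to 6, VITRO against IFOT-IM from 0 to 2, and IFOT-M against IFOT-IM stayed at 0.

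In VITRO against VIVO quantile and cyclic loess normalization gave AARS1 values of 0.030 and 0.096, QARS1 0.16 and 0.27 and RARS1 0.070 and 0.17, turned in sign and not called there. A further 11 of 105 member values changed sign after quantile and 12 after cyclic loess normalization without being called before or after it, and are not counted as reversed. The median over all probe sets, 0.13 in VITRO against VIVO, became 0.0033 and 0.01.

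For arrays of the same replicate number, deviations from the group means had correlations of -0.08 to 0.12 (median 0.01), and 1 of 18 pairs was over 0.1. Whether arrays of the same number shared a day or batch cannot be told from these values. With the replicate block, calls were 15, 8 and 13 cytosolic and 3, 3 and 3 mitochondrial in the order VITRO, IFOT-M, IFOT-IM against VIVO, and 4, 1 and 0 in VITRO against IFOT-M, VITRO against IFOT-IM and IFOT-M against IFOT-IM. Averaging several probe sets per symbol was not run, since each member had 1, and the promoter motif count was not run. Weak signals limit the mitochondrial enzymes, whose probe sets reach down to decile 3 of mean signal.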
